A study of Caenorhabditis elegans with 4 samples.

Results

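Systemic RNA interference (RNAi) is the movement of a silencing signal between the cells of an animal, and 7 Caenorhabditis elegans genes of this process are described here. They are sid-1, sid-2, sid-3, sid-5, rsd-2, rsd-3 and rsd-6, chosen by name for their role in the uptake and spread of double-stranded RNA (dsRNA), and all 7 were found among the 18468 genes of the authors' deposited table. Poly(A) RNA of whole gravid adults was sequenced in 2 libraries of the rde-3 mutant strain YY1449 and 2 libraries of N2, the laboratory wild type. The gene rde-3, also called mut-2, encodes the nucleotidyltransferase that puts poly(UG) tails on RNAs that are being silenced. The labels name neither the rde-3 allele nor any other allele, age or treatment, and with 1 strain per genotype the mutation and the rest of the strain background cannot be told apart.

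In this animal dsRNA that is eaten or made in one tissue can silence a matching gene in distant cells and in the progeny. SID-2 sits on the gut side of intestinal cells and is needed to take dsRNA up from the lumen, and SID-1 is a membrane channel that lets dsRNA into the cytoplasm of most cells. SID-3 is a tyrosine kinase that makes import efficient, SID-5 and RSD-3 are proteins of endosomes or of the vesicle machinery, and RSD-2 and RSD-6 are needed mainly for silencing in the germline. Inside the cell the dsRNA is cut by Dicer, and the resulting small RNAs guide Argonautes to targets, which RDE-3 then marks for the copying of further small RNAs. Setting the strains side by side gives the mRNA levels of the genes that carry dsRNA to that last step.

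Of the 7 genes, 3 rose in the mutants, namely the gut uptake gene sid-2, the channel gene sid-1 and the germline gene rsd-2, and none fell. The calls are those of the authors' deposited table at its adjusted p of 0.05. By the same rule 9.42% of all 18638 genes and repeat elements were higher and 8.04% were lower. Among the features whose mean lay within the range of the 7 genes, 14.6% were higher and 14.4% lower. The median log2 fold change of the 7 genes was 0.26, against -0.02 for all features of the authors' deposited table and 0.02 for those within the range of means. These medians do not allow for a trend with transcript length, described below.

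The deposited mean of each gene could be solved for whole reads in each of the 4 libraries, so that values per library can be shown. Such values were obtained for 97.1% of features, and their reads came to 8065007 and 5062664 in the mutant libraries and 9553368 and 6854482 in the N2 libraries. The libraries carry no replicate numbers, so within each genotype one is called deeper and the other shallower, from size factors of 1.06 and 0.707 in the mutants and 1.42 and 0.963 in N2. Which of the solved libraries belong to which genotype, and the direction of every fold change, follow from the order in which the authors' comparison is named, mutant before wild type. A normalized count is a read count divided by the library's size factor. The p-values rest on the deposited errors over libraries that the design text calls biological replicates, 2 per genotype. Those errors do not follow each gene's own spread between its libraries. Both sid-3 and rsd-2 had a standard error of 0.14, while their pooled SDs of log2 normalized counts within genotypes were 0.09 and 0.17.

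**Figure D1:**
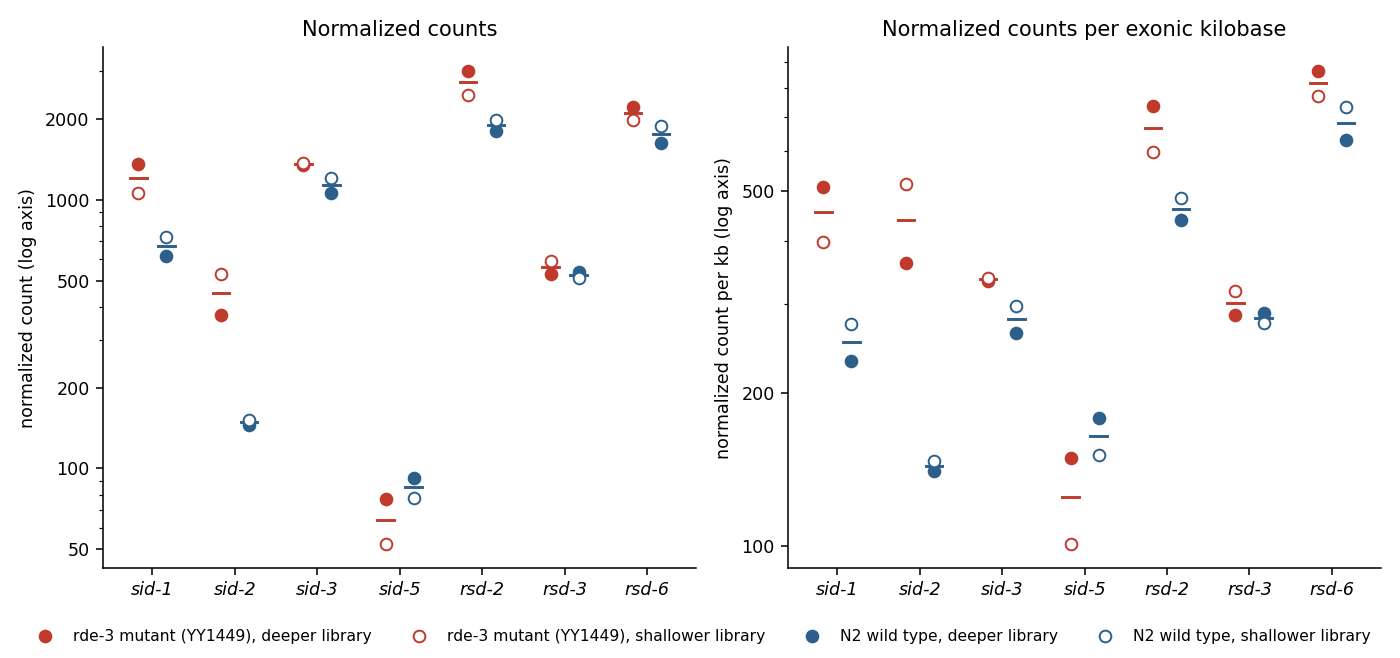
Normalized counts of the 7 systemic RNAi genes in each library (left) and the same values per kilobase of exon (right), both on log axes, with rde-3 mutant libraries in red, N2 libraries in blue, the deeper library filled, the shallower one open, and short lines at the mean of the 2 libraries. The mutant libraries lie above the N2 libraries for sid-1, sid-2, sid-3, rsd-2 and rsd-6, lie below them for sid-5, and overlap them for rsd-3.

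Uptake from the gut comes first in the route, and sid-2 showed the largest change of the 7 genes. The sid-2 gene lies on the forward strand of chromosome III (13679445 to 13682450, build WBcel235) and has 1 annotated transcript of 5 exons and 1028 bases. It had normalized counts of 371 and 530 in the mutant libraries, from 392 and 375 reads, against 145 and 152 in the N2 libraries, from 206 and 146 reads. Both mutant libraries stood well above both N2 libraries, and the spread was wider in the mutants, with a mean of 451 ± 113 in the mutants and 148 ± 4.47 in N2 (SD, n = 2 each). The authors' deposited table gave sid-2 a log2 fold change of 1.60 ± 0.24 (SE), a 3.03-fold rise with a 95% interval of 2.19 to 4.19 (adjusted p = 1.4e-09). By size it ranked 320th among the 1755 features called higher, and no other gene of the 7 changed by 2-fold. The rise was log2 1.32 without the shallower mutant library and between 1.57 and 1.84 without each of the others, values that carry no test.

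The sid-2 locus lies entirely inside the span of dyf-2, a ciliary transport gene on the opposite strand, and 27 bases of sid-2 exon overlap exons of dyf-2. The library kit keeps no record of strand, so reads from those bases cannot be told apart. In the authors' deposited table dyf-2 had a mean of 37 normalized counts and a log2 value of 0.02 ± 0.53 (adjusted p = 0.99), so no change was called in the gene around sid-2. The nearest genes beyond it, aqp-11 on the left and cul-2 on the right, had log2 values of 0.19 ± 0.17 (adjusted p = 0.591) and 0.46 ± 0.13 (adjusted p = 0.00273) per the authors' deposited table. The rise of cul-2, a cullin of ubiquitin ligases, was smaller than that of sid-2, and its call was lost once a trend with transcript length, described below, was removed (log2 0.23, adjusted p = 0.27).

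In whole-animal RNA, fewer cells of a type and less RNA per cell cannot be told apart, so sid-2 is set beside 15 marker genes of the intestine, its tissue. Of these, 2 were higher, 1 was lower and 12 did not pass per the authors' deposited table, with a median log2 value of 0.11, which was -0.04 without the length trend described below. The gut esterase gene ges-1 (log2 1.08 ± 0.16) and the cathepsin gene cpr-1 (1.28 ± 0.11) rose and the peptide transporter gene pept-1 fell by 0.65 ± 0.13 on the log2 scale per the authors' deposited table. The gut transcription factor genes elt-2 (log2 0.12 ± 0.25) and elt-7 (0.14 ± 0.43) and the brush border actin gene act-5 (-0.11 ± 0.11) did not pass there. The summed normalized counts of the 10 intestine markers with values per library were 11937 and 12024 in the mutants, against 12795 and 12866 in N2. These sums leave out cpr-1, asp-1, act-5, vha-6 and erm-1, whose means were too high to be solved, and the part of the intestine in the rise of sid-2 was not tested.

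The channel gene sid-1 had the second largest rise of the 7. It lies on the forward strand of chromosome V (5119970 to 5126916) with 1 annotated transcript of 7 exons and 2653 bases, and no other annotated gene overlaps it. Normalized counts of sid-1 were 1356 and 1056 in the mutant libraries, from 1432 and 747 reads, against 616 and 726 in the N2 libraries, from 873 and 699 reads. The genotypes did not overlap, and the means were 1206 ± 212 in the mutants and 671 ± 77.9 in N2 (SD, n = 2 each). The log2 fold change of sid-1 was 0.85 ± 0.17 per the authors' deposited table, a 1.8-fold rise with a 95% interval of 1.43 to 2.28 (adjusted p = 1.7e-05). Its neighbours on either side, C04F5.9 and F14F9.5, had log2 values of 0.24 ± 0.23 and -0.14 ± 0.73 there, and neither passed (adjusted p = 0.643 and 0.95). The gene chup-1, a relative of sid-1 linked to cholesterol uptake, had normalized counts of 181 and 206 in the mutants and 185 and 206 in N2, with a log2 value of -0.01 ± 0.25 per the authors' deposited table (adjusted p = 0.989).

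The kinase gene sid-3 was not called. On the forward strand of chromosome X (17186380 to 17193292) it has 3 annotated transcripts with 4041 bases of exon together. Its normalized counts were 1348 and 1366 in the mutant libraries, from 1423 and 966 reads, against 1061 and 1205 in the N2 libraries, from 1505 and 1161 reads. Both mutant values were above both N2 values, and the N2 libraries lay about as far from each other as the nearer of them lay from the mutants. The log2 fold change of sid-3 was 0.26 ± 0.14 with a 95% interval of -0.02 to 0.54 (adjusted p = 0.238) per the authors' deposited table, an interval that leaves room for a rise of up to 1.45-fold. The adaptor gene nck-1, whose protein acts in dsRNA import and is also named SID-4, had normalized counts of 468 and 513 in the mutants and 484 and 461 in N2, with a log2 value of 0.05 ± 0.18 per the authors' deposited table (adjusted p = 0.923).

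Of the endosome and vesicle genes, sid-5 had the fewest reads of the 7 and rsd-3 the smallest deposited change. The sid-5 gene (chromosome X, 6904721 to 6905849, forward strand) is short, with 516 bases of exon, and gave 81 and 37 reads in the mutant libraries and 131 and 75 in the N2 libraries. Normalized counts of sid-5 were 76.7 and 52.3 in the mutants, against 92.4 and 77.9 in N2. The genotypes were separated by the gap from 76.7 in the deeper mutant library to 77.9 in the shallower N2 library, which is less than the spread within either. The log2 fold change of sid-5 was -0.39 ± 0.40 with a 95% interval of -1.17 to 0.39 (adjusted p = 0.67) per the authors' deposited table. At this depth neither a fall to 0.445 of the N2 level nor a 1.31-fold rise lies outside that interval.

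The gene rsd-3 (chromosome X, 11798505 to 11803656, forward strand, 1859 bases of exon) encodes an epsin-like protein with an ENTH domain that is needed to import silencing RNA into somatic cells. It had normalized counts of 529 and 593 in the mutants, from 559 and 419 reads, and 536 and 512 in N2, from 760 and 493 reads, and the genotypes overlapped. Its log2 fold change was 0.10 ± 0.17 with a 95% interval of -0.25 to 0.44 (adjusted p = 0.86) per the authors' deposited table. A fold between 0.843 and 1.35 lies within that interval. The general epsin gene epn-1 had a log2 value of 0.31 ± 0.14 (adjusted p = 0.109) per the authors' deposited table.

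The germline genes rsd-2 and rsd-6 had the highest levels of the 7 per kilobase of exon. The rsd-2 gene spans 13521970 to 13540265 on the reverse strand of chromosome IV, with 4 annotated transcripts and 4085 bases of exon. Normalized counts of rsd-2 were 3006 and 2444 in the mutant libraries, from 3174 and 1728 reads, against 1794 and 1980 in the N2 libraries, from 2545 and 1907 reads. The genotypes did not overlap, with means of 2725 ± 397 in the mutants and 1887 ± 131 in N2 (SD, n = 2 each). The log2 fold change of rsd-2 was 0.53 ± 0.14 per the authors' deposited table, a 1.45-fold rise with a 95% interval of 1.19 to 1.75 (adjusted p = 0.00211). The decapping gene dcap-2 lies 99 bases from rsd-2 on the same strand and had a log2 value of 0.51 ± 0.19 (adjusted p = 0.0463), while F52G2.3 on the other side had 0.12 ± 0.28 (adjusted p = 0.889), per the authors' deposited table. The calls of rsd-2 and dcap-2 were both lost once the length trend described below was removed (log2 0.25 and 0.32, adjusted p = 0.276 and 0.339).

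The rsd-6 gene encodes a protein with a Tudor domain and lies on the reverse strand of chromosome I (8358248 to 8363858), with 2 annotated transcripts and 2563 bases of exon. It had normalized counts of 2212 and 1980 in the mutant libraries, from 2336 and 1400 reads, against 1620 and 1876 in the N2 libraries, from 2298 and 1807 reads. The mutant values were higher without overlap, but the log2 fold change of 0.26 ± 0.14, with a 95% interval of -0.01 to 0.54, did not pass per the authors' deposited table (adjusted p = 0.212). Its end overlaps that of the tubulin gene tba-5 by 26 bases, and tba-5 had a mean of 9.93 normalized counts and a log2 value of 0.29 ± 1.07 (adjusted p = 0.929) there. The neighbouring gene tbcd-1, 95 bases from rsd-6 on the same strand, had a log2 value of 0.24 ± 0.12 per the authors' deposited table (adjusted p = 0.189).

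Counted by library, both mutant values stood above both N2 values for 5 of the 7 genes and below them for 1. Over all 18101 features with values per library, 29% stood above in this way and 30.2% below. Within the range of means of the 7 genes the shares were 36.3% above and 35.2% below. Not overlapping was therefore common in this comparison and is no call by itself, as sid-3, sid-5 and rsd-6 show.

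Per kilobase of exon the 7 genes lay closer together than their counts did. In N2 the highest was rsd-6, with 632 and 732 normalized counts per kilobase, followed by rsd-2 with 439 and 485. Then came rsd-3 with 288 and 275, sid-3 with 263 and 298 and sid-1 with 232 and 274. The values of sid-3 overlapped those of both rsd-3 and sid-1. The lowest pair, sid-5 with 179 and 151 and sid-2 with 141 and 147, came close to each other without overlapping. In the mutants rsd-6 (863 and 772) and rsd-2 (736 and 598) were again the highest, sid-1 (511 and 398) and sid-2 (361 and 516) came next and overlapped, sid-3 (333 and 338) and rsd-3 (285 and 319) followed, and sid-5 (149 and 101) was last. So sid-2, which was the lowest of the 7 in both N2 libraries, had 438 ± 109 normalized counts per kilobase in the mutants, against 144 ± 4.35 in N2 (SD, n = 2 each).

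Transcript length moved with the comparison, and it bears on these genes because they differ in length. Among genes with a mean of at least 100 normalized counts, the median log2 fold change was -0.37 for the 313 genes with under 0.5 kb of exon and 0.33 for the 603 genes with 4 kb and over. In the longest class 44.3% of genes were called higher and 7.13% lower per the authors' deposited table, and in the shortest class 6.07% and 36.4%. Both mutant libraries showed it: set against the N2 mean, the median of the shortest class was -0.27 and -0.45 and that of the longest class 0.35 and 0.25 in the deeper and shallower mutant libraries. In the N2 libraries the same medians stayed between -0.05 and 0.05 in all length classes. The N2 libraries were set against their own mean, which shrinks their deviations, so these values are not measured like those of the mutants. The part of length in the changes of single genes was not tested beyond removing the trend.

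**Figure D2:**
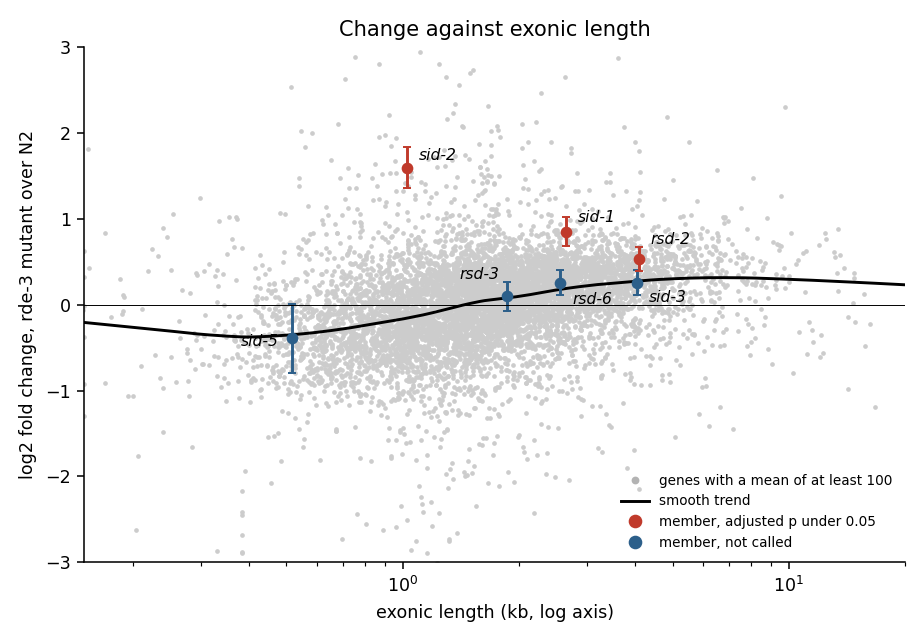
Log2 fold change (rde-3 mutant over N2) against the exonic length in kilobases (log axis) for genes with a mean of at least 100 normalized counts (grey), with a smooth trend (black line) and the 7 systemic RNAi genes (red if called, blue if not, bars are standard errors). The genes sid-2 and sid-1 lie above the trend, rsd-2 lies above it by less, and sid-3, sid-5, rsd-3 and rsd-6 lie on or near it. The axes leave out 76 genes.

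With that trend removed, sid-2 and sid-1 kept their calls and rsd-2 lost its own. The trend at the length of sid-2 was -0.16, so that its log2 value became 1.75 (adjusted p = 1.8e-11). For sid-1 the trend was 0.19 and the value left was 0.66 (adjusted p = 0.0018). At the length of rsd-2 the trend was 0.28, about the deposited change of its neighbour in length sid-3, and the value left for rsd-2 was 0.25 (adjusted p = 0.276). The values of the other members came close to 0, at -0.01 for sid-3, -0.04 for sid-5, 0.02 for rsd-3 and 0.08 for rsd-6 (adjusted p between 0.842 and 0.982).

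The calls rest on the deposited errors and on a normal distribution of the test statistic. A test with limma on the log2 normalized counts per library called the same 3 genes higher, with log2 values of 1.57 ± 0.18 for sid-2 (adjusted p = 8.1e-07), 0.84 ± 0.15 for sid-1 (adjusted p = 0.000123) and 0.52 ± 0.14 for rsd-2 (adjusted p = 0.00463), where 17.7% of 11899 features were higher and 18.3% lower. When 1 library was left out, limma still called sid-2 and sid-1 each time, with adjusted p of at most 0.0109, while rsd-2 was lost without the deeper mutant library (log2 0.37, adjusted p = 0.0656) and without the deeper N2 library (log2 0.45, adjusted p = 0.118). Without the deeper mutant library sid-5 was called lower (log2 -0.69, adjusted p = 0.0473). With a t distribution of 2 degrees of freedom in place of the normal one, the deposited statistics gave 0 calls among the 7 genes and 0 among all features. As no feature passed, this setting cannot sort the 7 genes from each other or from the rest. Its adjusted p was 0.682 for sid-2, sid-1 and rsd-2, while 2 of the 7 genes and 1137 features had an unadjusted p under 0.05. At an unadjusted p under 0.05, the same 3 of the 7 genes were higher and 0 lower per the authors' deposited table. The share of all features at that threshold was not counted, so this count is no result about the 7 genes.

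Other genes linked to the import and trafficking of silencing RNA showed small changes. Of 7 such genes 2 were higher and none lower per the authors' deposited table, with a median log2 value of 0.28. They were rme-2, the yolk receptor of oocytes, through which dsRNA can reach progeny (log2 0.42 ± 0.14, adjusted p = 0.0157), and cup-5, a lysosomal channel gene (0.41 ± 0.13, adjusted p = 0.0122), per the authors' deposited table. Normalized counts of cup-5 were 2264 and 2113 in the mutants, against 1573 and 1714 in N2. Both calls were lost without the length trend (log2 0.21 and 0.22, adjusted p = 0.39 and 0.328) and rab-7, a small GTPase gene of late endosomes, was then the one gene of the list called (log2 0.53, adjusted p = 0.00283). Before that rab-7 had not passed, with 0.28 ± 0.14 (adjusted p = 0.178) per the authors' deposited table.

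Among 9 ABC transporter genes that have been linked to RNAi, only haf-2 passed. It had normalized counts of 2672 and 2223 in the mutants, against 1438 and 1585 in N2, and a log2 value of 0.70 ± 0.14 (adjusted p = 1.9e-05) per the authors' deposited table, which was 0.52 without the length trend (adjusted p = 0.00345). The transporter gene haf-6, which acts in germline RNAi, had a log2 value of -0.34 ± 0.18 (adjusted p = 0.206) per the authors' deposited table. The list's median log2 value was -0.06, and limma called 2 of the 8 transporter genes it tested higher and 1 lower.

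Further lists linked to sid-1 held chup-1, sdg-1 and 3 IDs to which the annotation gives no gene name of their own, so no role is stated for them. Both W09B7.2 (log2 2.86 ± 0.55, adjusted p = 4.4e-06) and F07B7.2 (2.40 ± 0.51, adjusted p = 5.5e-05) rose per the authors' deposited table. Normalized counts of W09B7.2 were 80.5 and 75 in the mutants, against 12.7 and 8.31 in N2, and those of F07B7.2 were 86.2 and 72.1 in the mutants, against 12.7 and 17.6 in N2. The annotation gives both loci the same name, so reads may be split between copies and the values are uncertain for each alone. No feature carried the name sdg-1, which stood in the same list as W09B7.2 and F07B7.2. Its reads may stand under another ID, so the missing name does not show that it was unmeasured. Y37H2C.1, with at most 6 reads in a library, did not pass (log2 0.86 ± 1.92, adjusted p = 0.882) per the authors' deposited table.

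Downstream of import, 8 of 24 genes of intracellular RNAi were higher, 1 was lower and 15 did not pass per the authors' deposited table, with a median log2 value of 0.24. The mutated gene itself, mut-2, had normalized counts of 846 and 745 in the mutants and 726 and 805 in N2, with a log2 value of 0.06 ± 0.16 (adjusted p = 0.905) per the authors' deposited table. Since the allele is not named, this value does not check the labels. The Dicer gene dcr-1 had 4502 and 4120 normalized counts in the mutants, against 2301 and 2572 in N2, and a log2 value of 0.82 ± 0.13 (adjusted p = 2.7e-09) per the authors' deposited table. The gene rde-11, whose protein works with RDE-10 in amplifying small RNAs, had 651 and 573 in the mutants, against 323 and 338 in N2 (log2 0.89 ± 0.18, adjusted p = 2.8e-05 per the authors' deposited table), while rde-10 had 0.08 ± 0.18 there (adjusted p = 0.893).

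The nuclear Argonaute gene hrde-1 rose (log2 0.72 ± 0.13, adjusted p = 1.5e-06) and the Argonaute gene ppw-2 fell by 0.67 ± 0.13 (adjusted p = 3.2e-06) per the authors' deposited table. The first RNA-binding steps after import, rde-4 (log2 0.21 ± 0.17, adjusted p = 0.517) and the Argonaute gene rde-1 (0.06 ± 0.13, adjusted p = 0.888), did not pass per the authors' deposited table. These 24 genes have a median of 3.09 kb of exon, and the length trend left 3 of them higher and 1 lower once it was removed. The calls that held were dcr-1 (log2 0.51, adjusted p = 0.000822), rde-11 (0.92, adjusted p = 1.4e-05), hrde-1 (0.47, adjusted p = 0.00503) and ppw-2 (-0.91, adjusted p = 5e-11).

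**Figure D3:**
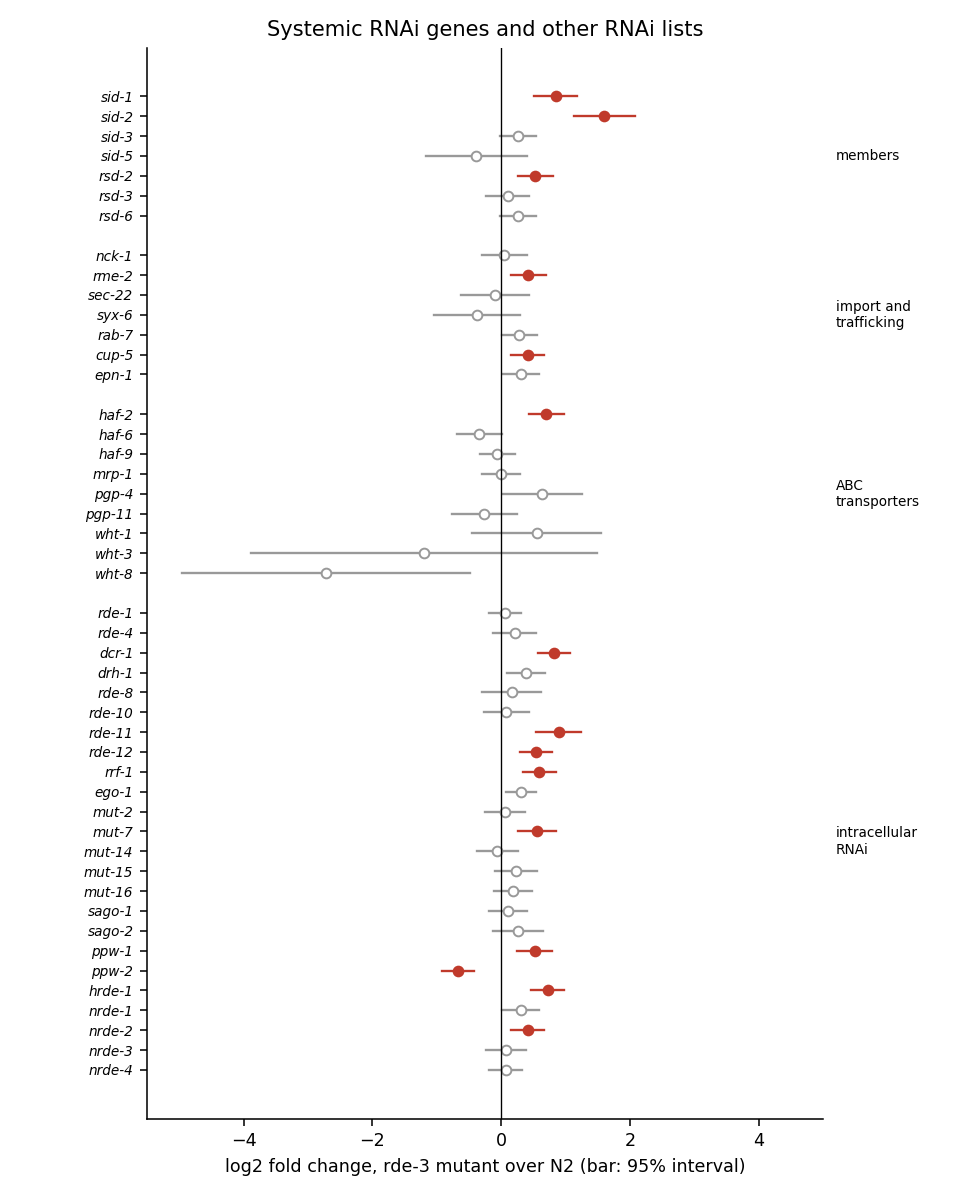
Log2 fold change (rde-3 mutant over N2) with its 95% interval for the 7 systemic RNAi genes and for the genes of 3 other RNAi lists, with genes at an adjusted p under 0.05 in red. Of the 7 systemic RNAi genes sid-1, sid-2 and rsd-2 are red, and of the 24 intracellular RNAi genes 8 red ones lie to the right of 0 and ppw-2, also red, to its left.

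Markers of other tissues moved between the genotypes, and their part in the results above was not tested. For the germline, the tissue in which rsd-2 and rsd-6 act, 4 of 15 markers were higher and 4 lower per the authors' deposited table, with a median log2 value of 0.09, which was -0.14 without the length trend. The 10 germline markers with values per library summed to 21758 and 18291 in the mutants, against 15279 and 17021 in N2. Left out, because their means were too high to be solved, were glh-1 (log2 -0.45 ± 0.13), pgl-1 (-0.35 ± 0.13), gld-1 (-0.01 ± 0.14), nos-3 (0.09 ± 0.14) and cgh-1 (0.36 ± 0.14). Of 13 oocyte and eggshell markers 12 were higher and none lower (median log2 0.49), and of 15 sperm markers 12 were lower and none higher (median log2 -2.96) per the authors' deposited table. The sperm markers, all with values per library, summed to 327 and 354 in the mutants, against 2538 and 1874 in N2, and peel-1 had no read in the mutants and 5 and 1 reads in N2. Without peel-1 the list's median log2 value was -2.80. The 2 oocyte markers with values per library summed to 4581 and 4359 in the mutants, against 2791 and 3272 in N2. Without the length trend the oocyte list had a median log2 value of 0.44 with 9 of 13 markers higher, where rsd-2 had 0.25 and was not called (adjusted p = 0.276).

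Of 12 muscle markers 10 were lower and none higher (median log2 -1.42), and of 12 neuronal markers none passed (median log2 -0.20) per the authors' deposited table. At an unadjusted p under 0.05 there, 2 neuronal markers were higher and 1 lower, and limma called as many. Muscle markers with values per library summed to 6880 and 6954 in the mutants, against 21751 and 22280 in N2, and those of neurons to 3669 and 3666 in the mutants, against 3721 and 3668 in N2. Of 10 hypodermis markers 3 were higher and 1 lower (median log2 0.35), and of 10 early embryo markers 2 were higher and none lower (median log2 0.61) per the authors' deposited table. The gene med-2 of the embryo list had no read in the mutants and 0 and 2 reads in N2, and the median without it was 0.62. Summed over the markers with values per library, hypodermis gave 4329 and 3982 in the mutants, against 3033 and 3147 in N2. The hypodermis sums leave out the collagen gene col-19, with a mean of 17812 normalized counts and a log2 value of -1.12 ± 0.13 per the authors' deposited table. With a mean that high left out, they do not give the direction of the whole list. Early embryo markers summed to 381 and 457 in the mutants, against 238 and 274 in N2, without skn-1 (log2 0.71 ± 0.13). Summed over each list, oocyte, sperm and early embryo markers thus had reads in all 4 libraries of these gravid adults, though single genes such as peel-1 and med-2 did not.

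**Figure D4:**
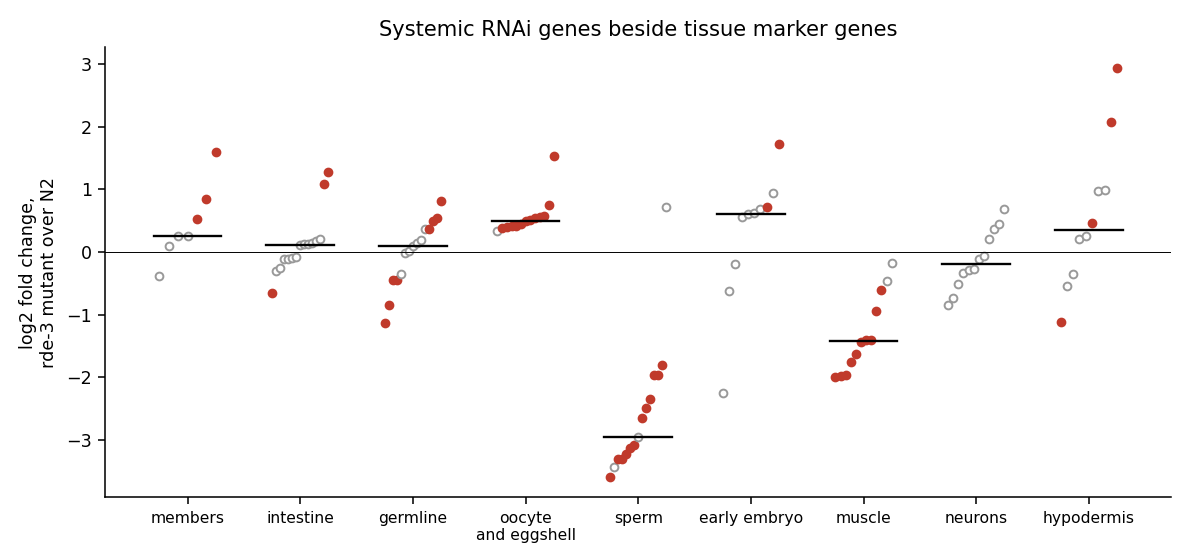
Log2 fold change (rde-3 mutant over N2) of the 7 systemic RNAi genes (members) beside marker genes of 8 tissues or stages, each point a gene, red at an adjusted p under 0.05, with lines at the medians. Sperm and muscle markers lie mostly below 0 and oocyte markers above it, while intestine markers spread around 0 and sid-2, at 1.60, lies above every one of them.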

How the data were processed

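Poly(A) libraries of unstranded Nextera XT type were sequenced from 2 rde-3 mutant and 2 N2 samples. Reads were trimmed with Trim Galore 0.4.4 and cutadapt 1.14 and aligned with STAR 2.7.0a, with SAMtools 1.3.1 and the builds ce11 and WBcel235 also named, per the submitters' processing notes. Neither counting tool nor model was given in the sources used here.

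For each of 18638 features the authors deposited a mean normalized signal over the 4 libraries, a log2 fold change with its standard error, a Wald score, a p-value and an adjusted p-value. Per the file headers and the values, the deposited score is the fold change divided by its standard error, the p-value is 2-sided from a normal distribution, and the adjustment is that of Benjamini and Hochberg over all features. The main test was that deposited adjusted p at 0.05. The authors' second table holds the 3254 features under 0.05 and added nothing.

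Each deposited mean is a sum of whole reads times 4 fixed weights. These weights were found from the smallest means, and the reads were solved for means up to 5000. For 11521 features a solution was accepted only if it matched the deposited error and, within 0.0001 log2, the deposited fold change. The largest deviation among them was 2.1e-05 log2. Features with the lowest means were solved from the mean alone, without that check. No feature had more than 1 solution. The 537 features without a solution have no values per library here, mostly because their means were above that limit. The read sums printed are therefore parts of the libraries, not their depth. The procedure recovered 300 of 300 simulated features. Their expected means were set above the lowest range, and no simulated library was left without a read. The simulation is therefore no check of features such as peel-1 and med-2, solved from the mean alone.

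From the solved values, log2(normalized count + 1) was tested with limma 3.58.1 in R 4.3.3 with a mean trend, over features with a mean of at least 10. This test, its repeats without each library and the solving of reads were chosen after seeing the data. With 1 library left in a group, limma assumes that it varies like the other group. In simulated data limma called 199 of 200 genes with a mean of at least 100 and a change of at least 2-fold. Smaller changes, such as those of sid-1 and rsd-2, were not simulated. Exonic lengths, positions and neighbours came from Ensembl 115 on WBcel235, which matched 17309 genes. The length trend was a lowess curve of span 0.3 over genes with a mean of at least 100. Other alternatives are a stricter threshold, recentring, a fold minimum and a t distribution.

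The named genes are the 7 members, up to 4 genes of each list by smallest adjusted p, genes of the lists with a textbook role, and the members' neighbours. The members and lists were chosen with earlier results of these data known. No feature carried the names mut-8, pgp-17, spe-38, trp-3, med-1, ceh-51 or sdg-1 of the lists.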

Additional observations from a re-analysis of the deposited data

How the results depend on the processing

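The count of 3 systemic RNAi genes called higher was 3 at an adjusted p of 0.01, over features with a mean of at least 10, after recentring by 0.06 on the log2 scale and with limma, and 2 with the length trend removed. It was 1 when a change of at least 2-fold was asked for in addition (sid-2), and 0 with a t distribution of 2 degrees of freedom, where no feature was called. With limma and each library left out in turn it was between 2 and 3, and the count called lower, which was 0 otherwise, was between 0 and 1. Removing the length trend turned the value of sid-3, which was not called, to -0.01 and ended the call of rsd-2 (0.25). Over all features 1755 were higher and 1499 lower. These were 1461 and 1740 after recentring, 1192 and 1206 without the length trend, 544 and 632 with the 2-fold minimum, 1206 and 992 at the stricter threshold, and 2104 and 2183 with limma, which without a library ranged between 915 and 2176 higher and between 954 and 2302 lower. The cause of these shifts was not tested. No paired analysis was possible because the solved libraries carry no replicate numbers. Depth limits sid-5 most, with 37 to 131 reads per library.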

Other observations

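Some genes resembled the 3 called members most closely in mean normalized count and log2 fold change together, a likeness of 2 deposited numbers that says nothing of function. Nearest to sid-2 were ctl-3 (log2 1.67 ± 0.22), a catalase gene with close copies beside it between which reads may be split, F13C5.2 (1.44 ± 0.22) and ugt-1 (1.42 ± 0.22) per the authors' deposited table. Nearest to rsd-2 were klp-15 (0.54 ± 0.14), a kinesin gene with a near-identical copy, T20F5.6 (0.53 ± 0.13) and F59E12.1 (0.47 ± 0.14), and nearest to sid-1 were W04B5.3 (0.84 ± 0.16), F22H10.3 (0.89 ± 0.17) and Y62H9A.3 (0.79 ± 0.17), per the authors' deposited table.

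Over the mean of all 4 libraries, each of the 7 genes was expressed above most genes per kilobase of exon. The share of the 17309 genes with a length that lay below was 86.6% for rsd-6 (750 normalized counts per kilobase), 82.5% for rsd-2 (564), 75.2% for sid-1 (354), 73% for sid-3 (308), 72.1% for both rsd-3 (292) and sid-2 (291) and 62.3% for sid-5 (145).

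Among the neighbours of members that were not called, B0302.5, whose end lies 7 bases from that of sid-3 on the opposite strand, had a log2 value of 0.58 ± 0.25 (adjusted p = 0.0915) per the authors' deposited table, which was 0.83 and called without the length trend (adjusted p = 0.00866). The rsd-6 neighbour cyp-36A1 had 0.74 ± 0.33 (adjusted p = 0.12), and pes-23 and nhx-4 on the sides of sid-5 had -0.12 ± 0.29 (adjusted p = 0.891) and -0.23 ± 0.26 (adjusted p = 0.705) per the authors' deposited table.

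Members of the germline list changed in both directions. Of its RNA helicase genes, glh-2 (log2 0.81 ± 0.13) and glh-4 (0.55 ± 0.14) rose and glh-1 (-0.45 ± 0.13) fell, as did the near-identical pair fbf-1 (-0.84 ± 0.19) and fbf-2 (-1.14 ± 0.18), whose proteins keep germline stem cells, per the authors' deposited table. The call of glh-4 was lost without the length trend (log2 0.29, adjusted p = 0.163). Of the hypodermis markers, the collagen genes sqt-3 (log2 2.08 ± 0.21) and dpy-7 (2.94 ± 0.70) and the molting regulator gene nhr-23 (0.46 ± 0.15) rose, while the adult collagen gene col-19 fell by 1.12 ± 0.13 on the log2 scale per the authors' deposited table. Without the length trend nhr-23 was not called (log2 0.28, adjusted p = 0.271).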
